A study of Mus musculus with 9 samples.

Results

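Kmt2d, Setd1a and Chd4 encode large chromatin regulators, and their transcripts lay in stretches where RNA peaks of Polycomb repressive complex 2 (PRC2) were dense in every library. A peak was counted for a gene when its summit fell in the gene's window and on the gene's strand in the mouse build mm9. The windows were the minus strand of chromosome 15 from 98660000 to 98703000 for Kmt2d (older name Mll2), the plus strand of chromosome 7 from 134919000 to 134945000 for Setd1a, and the plus strand of chromosome 6 from 125044000 to 125082000 for Chd4. They held 66 of the 49266 peaks of the series, 26 in Kmt2d, 15 in Setd1a and 25 in Chd4. The genes were chosen by the number of peaks in their stretches in all 4 libraries, so their numbers of peaks are described here and not tested against other regions.

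The libraries came from female EL 16.7 mouse embryonic stem cells, a CAST/Ei x 129/Sv/Jae hybrid line, differentiated for 7 days. Every dCLIP cell line stably expressed the biotin ligase BirA. The 4 libraries analysed also expressed an Avi-GFP-tagged mouse PRC2 subunit, EZH2 in 2 libraries and SUZ12 in 2. Each library came from 1 stable clone, so clone and culture cannot be told apart and p-values measure the spread between clones. In the limma test of peak numbers this spread is pooled mainly over windows with similar numbers of peaks. In dCLIP, RNA is crosslinked to protein by UV light and trimmed by RNase, and RNA bound to the biotinylated protein is recovered on streptavidin. The mock dCLIP library (1 sample, BirA with an empty vector) and the PRO-seq libraries of wild-type and SUZ12-degron cells (2 samples each) were not analysed here, so no peak below is set against an untagged background. The level of each transcript in these cells was not analysed here either, and more RNA cannot be told apart from more binding per RNA.

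PRC2 methylates lysine 27 of histone H3, a mark of silenced developmental genes. EZH2 is its methyltransferase and SUZ12 a core subunit, and the complex is known to bind many RNAs. KMT2D and SETD1A are methyltransferases for lysine 4 of histone H3 and belong to the COMPASS family, the Trithorax counterpart of Polycomb. KMT2D acts mainly at enhancers and SETD1A mainly at promoters. CHD4 is the ATPase of the nucleosome remodelling and deacetylase complex NuRD, which removes acetyl groups from histones and helps to set developmental genes in embryonic stem cells.

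The lists ran to 10468 and 13267 peaks for EZH2 (replicates 1 and 2) and to 11580 and 13951 for SUZ12, and no peak had identical bounds in 2 libraries. The false discovery rate (FDR) of a peak is the value the authors' peak caller gave it. It reached at most 0.0108 in any library. Since the lists differ in length, the strength of a peak is also given as its rank by FDR within its own library. Read depth cannot be read from these lists.

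The dense stretches coincided with the genes to different degrees. The stretches had been ranked as 50-kb windows by the lowest number of peaks in any library. The window with Kmt2d ranked 3, that with Setd1a 5 and that with Chd4 8. At the limit of 10 windows, the windows ranked 10 and 11 were tied, with a lowest number of 4 and a sum of 27 peaks each. All 25 peaks of the ranked window on chromosome 15 belonged to Kmt2d. On chromosome 6, 24 of 32 belonged to Chd4 and the other 8 lay beyond its 3′ edge. On chromosome 7 only 15 of 24 belonged to Setd1a, and the other 9 lay 5′ of it. The density of that stretch was therefore shared between Setd1a and the sequence before it. In the RefSeq annotation of GRCm38 the neighbour before Setd1a is Orai3 and the neighbour after Chd4 is Nop2, both on the plus strand. Near the edges of the windows, the nearest same-strand peak outside lay 1.824 kb before Setd1a (EZH2 replicate 2) and 0.664 kb beyond Chd4 (SUZ12 replicate 2), so a small move of these edges would change their counts by 1. Around Kmt2d the nearest lay 11.307 kb below and 31.669 kb above the window.

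Kmt2d had 6 peaks in each EZH2 library and 6 and 8 peaks in the SUZ12 libraries, a mean of 6 ± 0 for EZH2 and 7 ± 1.41 for SUZ12 (SD, n = 2). The libraries were close to each other, and only SUZ12 replicate 2, which had the longest list, stood above the rest. Scaled to list length, as log2, it did not, at 2.61 against 2.63 in EZH2 replicate 1. Setd1a had 5 and 3 peaks with EZH2 and 4 and 3 with SUZ12, on average 4 ± 1.41 and 3.5 ± 0.707. Its shorter window of 26 kb held 1.15 to 1.92 peaks per 10 kb in a library, against 1.40 to 1.86 in the 43 kb of Kmt2d. Chd4 varied most, with 5 and 6 EZH2 peaks against 10 and 4 SUZ12 peaks, a mean of 5.5 ± 0.707 and 7 ± 4.24. The SUZ12 clones thus held both the highest and the lowest number for Chd4, with the EZH2 clones between them.

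**Figure D1:**
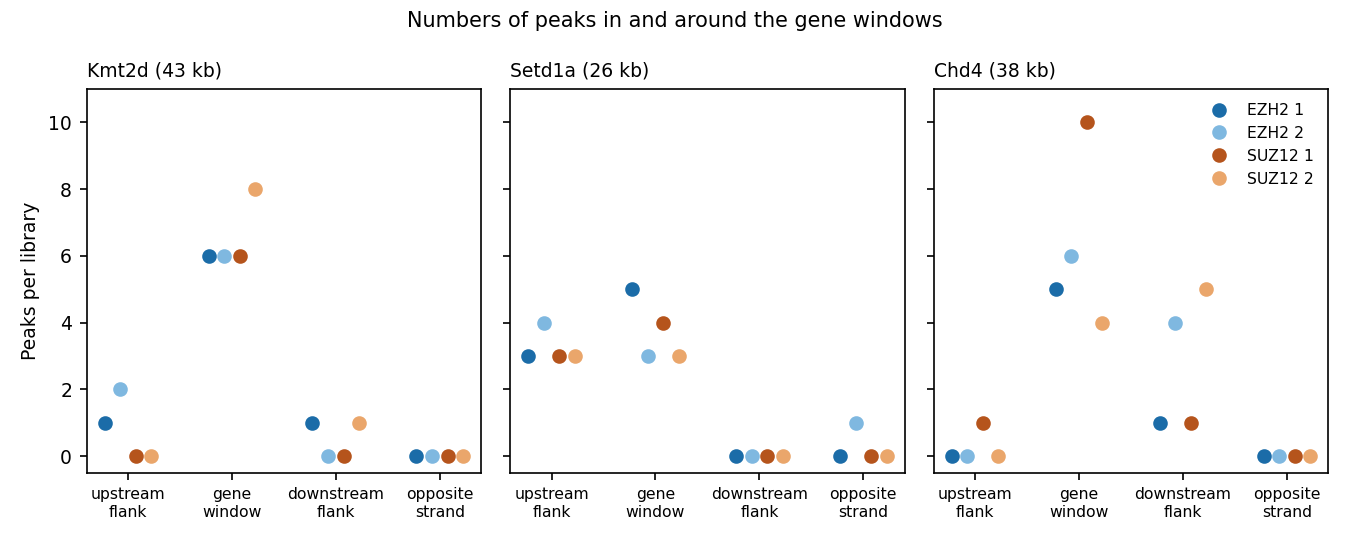
Numbers of peaks in each library (y axis) in the window of each gene, in same-strand flanks of equal length upstream and downstream, and on the opposite strand of the window; each point is 1 library, EZH2 in blue and SUZ12 in orange. Kmt2d stood above both flanks in every library, Setd1a had as many peaks upstream as inside in SUZ12 replicate 2, and the opposite strand held 1 peak in all.

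Same-strand flanks of the same length as each window were counted for contrast. The flanks of Kmt2d held 1, 2, 0 and 0 peaks upstream and 1, 0, 0 and 1 downstream, with the 2 EZH2 libraries named before the 2 SUZ12 libraries. Every library had at least 6 peaks inside, so the groups of values did not overlap. In the same order Setd1a had 3, 4, 3 and 3 peaks upstream and 0 in every library downstream. Its inner counts of 3 to 5 overlapped the upstream counts, and EZH2 replicate 2 had 1 peak more upstream than inside. Chd4 had 1 upstream peak in all, in SUZ12 replicate 1, and 1, 4, 1 and 5 downstream peaks. SUZ12 replicate 2 had 5 peaks downstream of Chd4 and 4 inside. The windows were chosen for their density, so the contrast with the flanks is a description.

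Peaks were almost all on the sense strand. The opposite strand of the 3 windows held 1 peak against 66 on the strand of the genes. The stretches were chosen for peaks on that strand, so this contrast is a description. The opposite-strand peak lay in the Setd1a window at 134919695 to 134919802 on the minus strand and was 108 bp wide. It came from EZH2 replicate 2 alone and had an FDR of 0.0052. Its summit lay 0.714 kb inside the 5′ edge, ahead of the first sense peak at 2.506 kb. Kmt2d and Chd4 had no opposite-strand peak in any library. The ranked 50-kb windows with Kmt2d, Setd1a and Chd4 had 0, 3 and 0 opposite-strand peaks. The other 7 of the 10 densest windows had 11 opposite-strand peaks, 10 of them in a single window on chromosome 6.

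EZH2 and SUZ12 were compared by their peaks in 1096 stranded windows, the 3 gene windows among them, as log2 of peaks scaled to the library (limma-trend, Benjamini-Hochberg adjustment over all windows). For Kmt2d, SUZ12 minus EZH2 was 0.084 ± 0.47 (SE) on the log2 scale, with a 95% interval of -0.84 to 1.01. For Chd4 it was 0.092 ± 0.49, with an interval of -0.86 to 1.05. For Setd1a it was -0.25 ± 0.58, with an interval of -1.38 to 0.88. These SEs and intervals rest mainly on variance pooled over windows, not on the spread of each gene's own clones. On the scaled log2 values the SUZ12 clones were 3.18 and 1.69 for Chd4, but 2.49 and 2.61 for Kmt2d. The SEs of these 2 genes were nonetheless nearly alike, so the interval of Chd4 understates the spread between its SUZ12 clones. The stretches had been chosen for high numbers in every library, which disfavours a window that is low in either protein, so small differences in these genes are partly fixed by the choice and are given as a description. The adjusted threshold of 0.05 in limma was passed by 0 of all 1096 windows (0%). An unadjusted p below 0.05 was reached by 27, against 54.8 expected if no window differed. As SUZ12 over EZH2, the intervals ran from 0.558- to 2.01-fold for Kmt2d, from 0.55- to 2.07-fold for Chd4 and from 0.383- to 1.83-fold for Setd1a. These intervals are not adjusted for the number of windows and are not limits of detection. Larger differences could also have missed the adjusted threshold. For Chd4 the sign rested on 1 library, since the difference was -0.65 without SUZ12 replicate 1. For Setd1a it turned to 0.24 without EZH2 replicate 1 and to 0.062 without SUZ12 replicate 2. For Kmt2d it turned to -0.086 without EZH2 replicate 2, and to -0.49 when covered bases were compared in place of peaks.

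**Figure D2:**
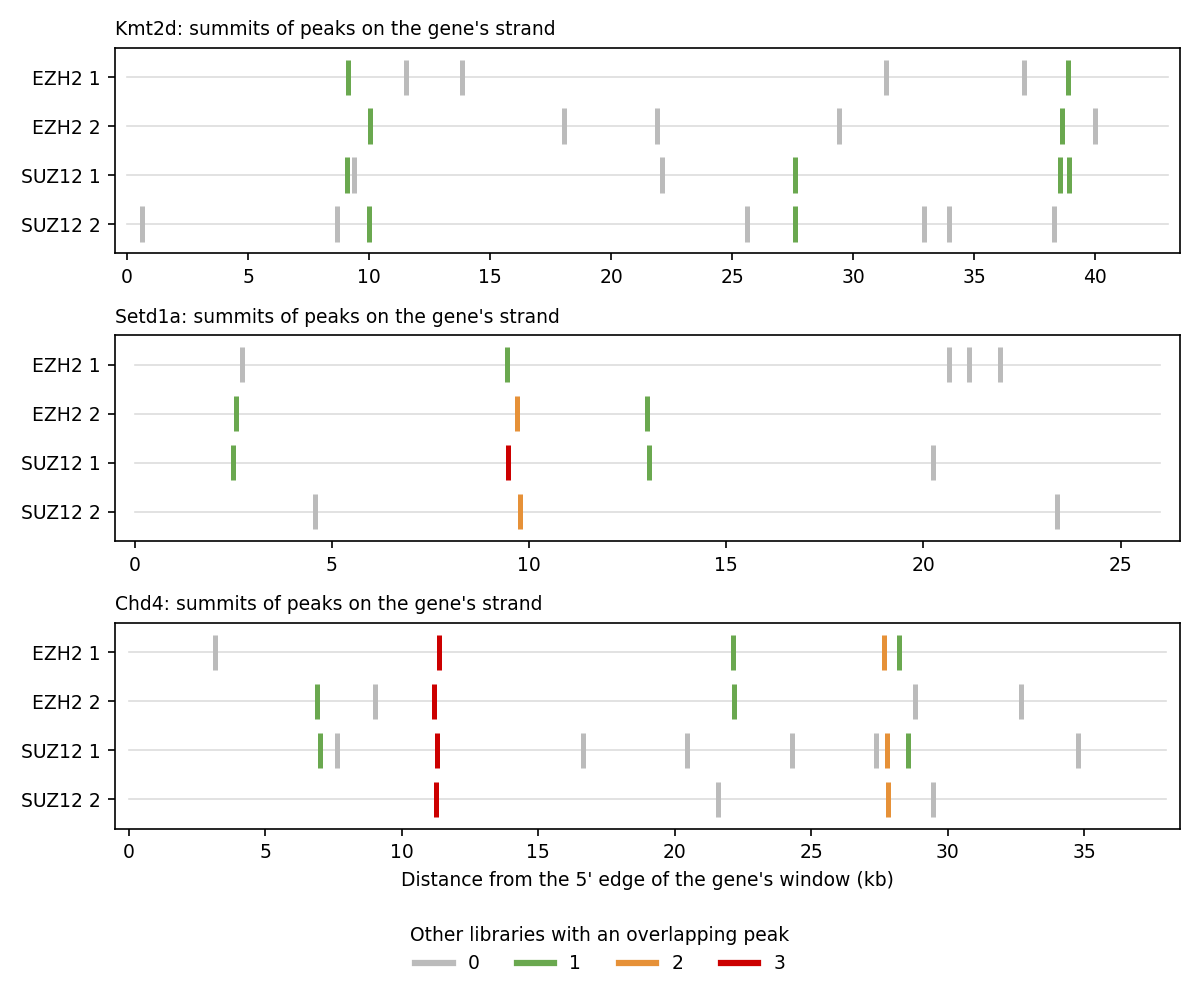
Summits of the 66 peaks by distance from the 5′ edge of each gene's window (x axis, kb), with a row for each library; the colour gives the number of other libraries with an overlapping same-strand peak. All 4 libraries have overlapping peaks at about 11.3 kb in Chd4, while in Setd1a their summits between 9.443 and 9.783 kb fall into 2 pairs, and no peak of Kmt2d is overlapped by more than 1 other library.

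Peaks were spread over the length of each gene and gathered in a few stretches. Positions are given from the 5′ edge of the window, since the annotation at hand was of another build and exons, introns and untranslated regions were not assigned. For orientation, summits closer than 1 kb to the next were joined into a stretch, a limit chosen after the positions were seen.

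In Kmt2d the summits ran from 0.624 to 40.014 kb. Cut into 4 segments of equal length, 5′ to 3′, the window held 7, 3, 7 and 9 peaks. They formed 15 stretches, of which 11 were single peaks and 2 held peaks of all 4 libraries. The first of these, 98692639 to 98694367, was 1729 bp long and held 6 peaks, 1 in each EZH2 library and 2 in each SUZ12 library. The other, 98663975 to 98664744 near the 3′ edge, was 770 bp long and held 5 peaks. Together they had 11 of the 26 peaks of Kmt2d (42.3%). Between 0.624 and 8.658 kb there was no summit in any library, and the peak ahead of this gap, at 98702304 to 98702406, came from SUZ12 replicate 2 alone (FDR 1.76e-05).

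The strongest Kmt2d site lay in the 3′ stretch, at 98663975 to 98664307, 38.9 kb from the 5′ edge. It had an FDR of 3.77e-09 in EZH2 replicate 1, at rank 1.59% of that library, and 7.11e-07 in SUZ12 replicate 1, at rank 3.46%. The second libraries of both proteins had no peak in it. They did have peaks within the same stretch, EZH2 replicate 2 with an FDR of 0.00112 and SUZ12 replicate 2 with 0.000155. The widest Kmt2d peak, 417 bp at 98692639 to 98693055, was from EZH2 replicate 2, with an FDR of 2.11e-07. SUZ12 replicate 2 had a peak inside it with a summit 4 bp away and an FDR of 0.000387.

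In Setd1a the summits ran from 2.506 to 23.4 kb, and the 4 segments held 4, 5, 1 and 5 peaks. The longest stretch without a summit was 7.181 kb, between 13.052 and 20.233 kb. Only 1 of its 6 stretches held all 4 libraries. This was the site at 134928390 to 134928865, 476 bp long and 9.63 kb from the 5′ edge. EZH2 replicates 1 and 2 gave it an FDR of 1.22e-06 and 0.000655, and SUZ12 replicates 1 and 2 gave 2.11e-17 and 4.49e-05. The SUZ12 replicate 1 peak, 453 bp wide at 134928412 to 134928864, was the strongest and the widest of all peaks in the 3 genes. It ranked at 0.199% of its library.

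That site was joined by its widest peak. No base was common to all 4 peaks, and their summits spanned 340 bp. EZH2 replicate 1 and SUZ12 replicate 1 had summits at 9.443 and 9.479 kb, and EZH2 replicate 2 and SUZ12 replicate 2 at 9.69 and 9.783 kb. The summits therefore fell into a pair towards the 5′ end of the site, from replicate 1 of each protein, and a pair towards its 3′ end, from replicate 2 of each. Only the summits were so divided, since the SUZ12 replicate 1 peak spanned most of the site and overlapped the peaks of the 3 other libraries.

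Other Setd1a sites were shared by EZH2 replicate 2 and SUZ12 replicate 1. The site at 134921455 to 134921622 had an FDR of 2.97e-05 and 2.52e-05 in them, and the site at 134931795 to 134932134 had 3.05e-07 and 0.00286. The 3′ segment of Setd1a was filled by EZH2 replicate 1, with 3 of its 5 peaks there, while EZH2 replicate 2 had none. SUZ12 replicate 1 had a strong peak of its own at 134939172 to 134939329 (FDR 3.23e-07), with the nearest EZH2 replicate 1 peak at 134939568 to 134939666.

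In Chd4 the summits ran from 3.169 to 34.782 kb, and the third segment held 10 of the 25 peaks, against 5 in each of the others. Of its 11 stretches, 2 held all 4 libraries and together had 12 peaks (48%). The site at 125055189 to 125055385, 197 bp long and 11.3 kb from the 5′ edge, had a peak in every library. The EZH2 peaks had an FDR of 0.00825 and 2.55e-07 (replicates 1 and 2), and the SUZ12 peaks 5.29e-08 and 1.44e-08. All 4 peaks shared 58 bp and their summits lay within 165 bp. The site was strong in 3 libraries, at rank 1.84 to 3.02%, and among the weakest peaks of EZH2 replicate 1, at rank 88.1%.

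The site at 125071680 to 125071885, 27.8 kb from the 5′ edge, had peaks in 3 libraries and held the lowest FDR of Chd4, 1.65e-09 in SUZ12 replicate 1. Its FDR was 0.000171 in EZH2 replicate 1 and 0.000684 in SUZ12 replicate 2, and EZH2 replicate 2 had no peak in it. It was part of a stretch of 2188 bp, 125071349 to 125073536, with 8 peaks from all 4 libraries. The widest Chd4 peak, 351 bp at 125072171 to 125072521 in EZH2 replicate 1, lay in the same stretch. The RefSeq annotation of GRCm38 places a guide RNA gene, Gm23751, and a microRNA gene, Mir7045, inside Chd4. Where these lie in mm9 was not determined, so whether a peak falls on them was not analysed here.

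Chd4 also had sites shared by pairs of libraries. The site at 125050845 to 125051094 was shared by EZH2 replicate 2 (FDR 2.39e-08) and SUZ12 replicate 1 (3.42e-05). The site at 125066095 to 125066265 was the only site in the 3 genes found in both EZH2 clones and in no SUZ12 clone, with an FDR of 0.000379 and 0.00106. The one found in both SUZ12 clones and in no EZH2 clone lay in Kmt2d at 98675348 to 98675511, with an FDR of 0.0035 and 0.00279. The Chd4 site ranked at 25.1 and 43.9% in EZH2 replicates 1 and 2. The Kmt2d site was weaker, at 64.1 and 63.1% in SUZ12 replicates 1 and 2.

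**Figure D3:**
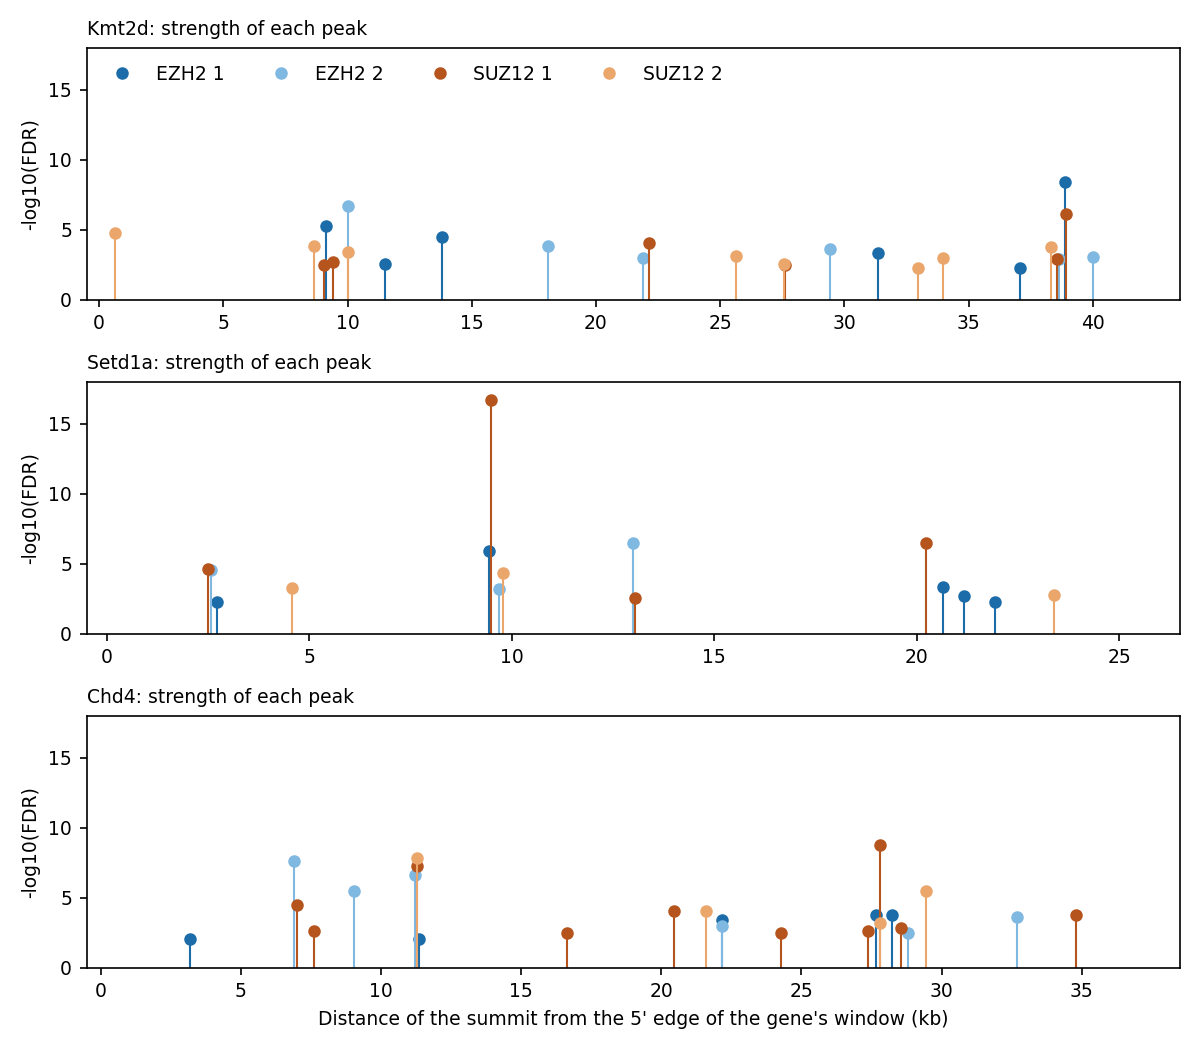
Strength of each peak as -log10 of its FDR (y axis) by the distance of its summit from the 5′ edge of the window (x axis, kb), coloured by library. The SUZ12 replicate 1 peak of Setd1a at 9.479 kb, with an FDR of 2.11e-17, stands above all other peaks of the 3 genes, the next being 1.65e-09 in Chd4 and 3.77e-09 in Kmt2d.

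Members differed widely in strength. Of the 66 peaks, 16 (24.2%) ranked in the lowest 10% of FDR of their library and 48 in the lowest 50%, with a median rank of 26.0%. By gene the median rank was 20.1% in Chd4, 26.9% in Setd1a and 36.2% in Kmt2d. In the lowest 10%, which by construction holds 10% of all peaks, were 4 of 26 Kmt2d peaks (15.4%), 5 of 15 Setd1a peaks (33.3%) and 7 of 25 Chd4 peaks (28%). The other 7 of the 10 densest windows had 74 of their 189 peaks in the lowest 10%. That share was larger than the 16 of 66 in the genes described here. The genes were not tested against each other or against these windows.

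The recurrence of single peaks is given beside that of all peaks. The stretches were chosen for many peaks in every library, which brings peaks of other libraries close by, so a share above that of all peaks follows in part from the choice. Over the whole series 17.4% of peaks were overlapped on the same strand, by at least 1 bp, by a peak of another library. In the 3 genes 31 of 66 were, 47.0% (95% Wilson interval 35.4 to 58.8%). The share was 38.5% in Kmt2d (10 of 26, interval 22.4 to 57.5%), 53.3% in Setd1a (8 of 15, 30.1 to 75.2%) and 52% in Chd4 (13 of 25, 33.5 to 70.0%). These intervals cover counting error only, and peaks that overlap each other are not independent, so no test was made. The other 7 of the 10 densest windows had 102 of 189 peaks found in another library, 54.0% (46.9 to 60.9%). The shares of the 3 genes lay near that of the other dense windows, and the difference from them was not tested.

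Few of the overlapping peaks in Kmt2d and Setd1a matched in extent. Several were a narrow peak inside a wider one. In Setd1a, the SUZ12 replicate 1 peak at 134932003 to 134932104 lay inside the EZH2 replicate 2 peak at 134931795 to 134932134. When each peak had to cover 50% of the other, 2 of 26 Kmt2d peaks (7.69%) and 2 of 15 Setd1a peaks (13.3%) were still found, near or below the 12.2% of all peaks. Chd4 kept 10 of 25 (40%). When summits within 100 bp were asked for, Kmt2d kept 10 and Setd1a 8, and Chd4 had 8 of 25 (32%), against 14.5% of all peaks. By overlap of 1 bp and by summit distance each gene lay above all peaks, while by matching extents only Chd4 did so clearly. These differences were not tested.

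**Figure D4:**
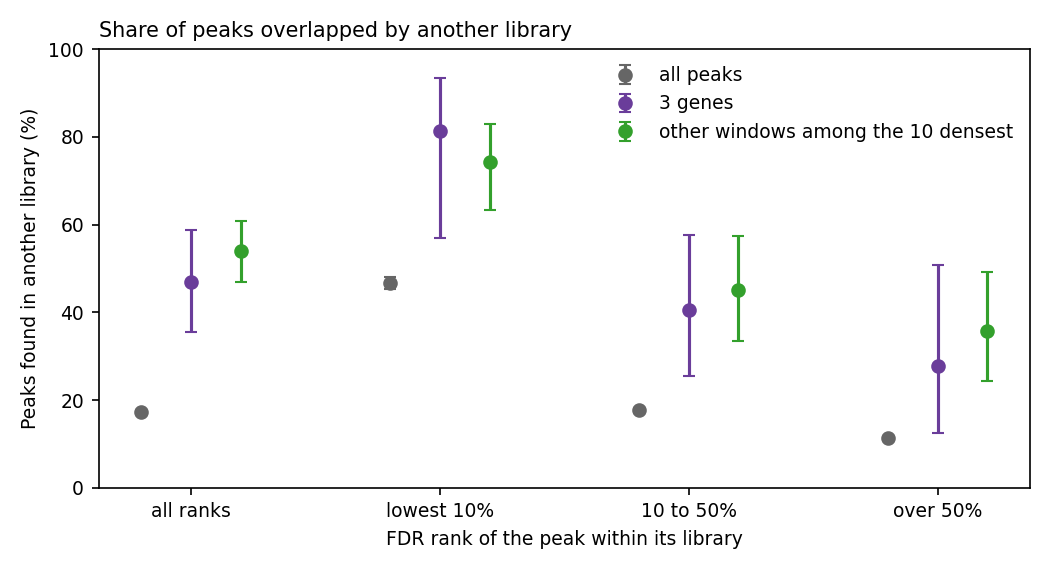
Share of peaks overlapped on the same strand by a peak of another library (y axis, percent, bars are 95% Wilson intervals) by the FDR rank of the peak within its library (x axis), for all peaks, the 3 genes and the other 7 of the 10 densest windows. The 3 genes lay above all peaks in each rank class, at 81.2, 40.6 and 27.8% against 46.8, 17.7 and 11.2%, and near the other dense windows.

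The shares are also given by strength, which does not remove the effect of choosing dense stretches, and no difference was tested. Among peaks in the lowest 10% of FDR, 13 of 16 in the 3 genes (81.2%) were found in another library, against 46.8% of all such peaks. From 10 to 50% the shares were 40.6% and 17.7%, and over 50% they were 27.8% and 11.2%. In the last class the interval of the genes, 12.5 to 50.9%, reached almost to the value of all peaks. Peaks covered between 1.28 and 3.62% of the bases of a gene window in a library.

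Peaks merged by overlap gave 48 sites in the 3 genes, 21 in Kmt2d, 10 in Setd1a and 17 in Chd4. In Kmt2d 5 sites, in Setd1a 3 and in Chd4 5 had peaks in at least 2 libraries, 13 of 48 in all (27.1%), against 8.08% of all sites of the series. At least 3 libraries shared 3 sites, 1 in Setd1a and 2 in Chd4, against 2.13% of all sites, and all 4 libraries shared 2, against 0.908%. Kmt2d had none with more than 2 libraries, although every library had at least 6 peaks in it. The other 35 sites came from 1 library.

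Recurrence was uneven between libraries, and in Kmt2d and Setd1a SUZ12 replicate 1 carried much of it. In Kmt2d, SUZ12 replicate 1 had 4 of its 6 peaks in another library, against 2 of 6 in each EZH2 library and 2 of 8 in SUZ12 replicate 2. In Setd1a all 3 peaks of EZH2 replicate 2 overlapped a SUZ12 replicate 1 peak. Without SUZ12 replicate 1 the share found in another library was 10% in Kmt2d, 18.2% in Setd1a and 46.7% in Chd4, against 13.2% of all peaks. Without EZH2 replicate 2 it was 25% in Setd1a, against 13.9% of all peaks. In Chd4 the share was lowest without EZH2 replicate 1, at 35%, against 13.6% of all peaks. The shares of Kmt2d and Setd1a without SUZ12 replicate 1 lay near that of all peaks, although these stretches were chosen for density, and that of Chd4 lay above it. The differences were not tested.

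The pairs of libraries did not group by protein. Over the 3 genes a mean of 18.1% of peaks were shared within a protein, at 12.9% for EZH2 and 23.3% for SUZ12, and 25.4% between proteins, with a range of 12.9 to 35%. For all peaks these means were 8.82% and 9.15%. The EZH2 clones shared no peak in Kmt2d and none that overlapped directly in Setd1a, and 2 in Chd4. EZH2 replicate 1 and SUZ12 replicate 1 shared 2 peaks in Kmt2d, 1 in Setd1a and 3 in Chd4. Since 6 pairs share 4 libraries, these values are a description.

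**Figure D5:**
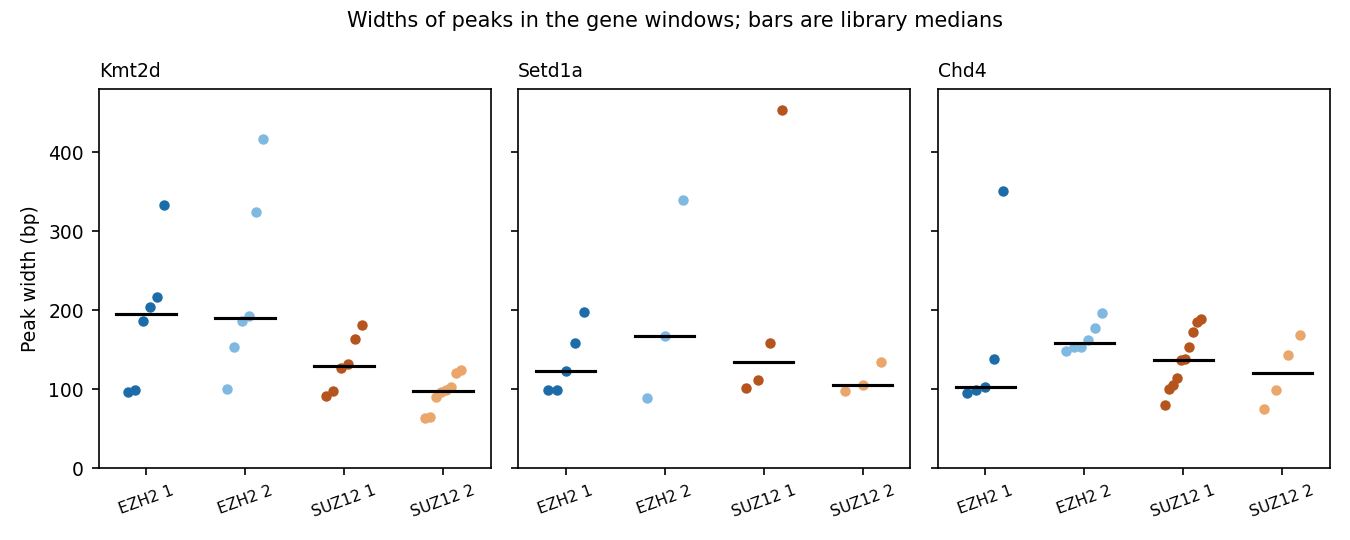
Width of each peak (y axis, bp) by library for each gene, with black bars at the library medians. In Kmt2d the EZH2 medians of 195 and 190 bp lie above the SUZ12 medians of 129.5 and 97.5 bp, while in Setd1a and Chd4 the medians of the proteins overlap.

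Peak width was not used to choose the genes. In Kmt2d the median width of an EZH2 library was 195 and 190 bp, and that of a SUZ12 library 129.5 and 97.5 bp. The EZH2 medians lay above both SUZ12 medians, by 79 bp in the mean. Over all peaks the library medians also did not overlap, at 177 and 188 bp for EZH2 and 151 and 138 bp for SUZ12, so the direction is that of the whole libraries. In Setd1a the medians were 123 and 168 bp for EZH2 and 135 and 105 bp for SUZ12, and in Chd4 103 and 158 bp against 137.5 and 121 bp. In these genes the proteins overlapped, with a difference of 25.5 bp and 1.25 bp, EZH2 minus SUZ12. Exact permutation tests, two-sided, gave p = 0.333 for Kmt2d, 0.667 for Setd1a and 1 for Chd4, each 1 after adjustment over the 3 genes, where 2 against 2 libraries allow no p below 0.333. Peaks of the 3 genes were 64 to 453 bp wide, with a median of 135.5 bp against 156 bp for all peaks.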

How the data were processed

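Peak lists of 4 dCLIP libraries, 1 list per strand, were used as the authors deposited them. Peak names carry the prefix of the caller PeakRanger, and calls were made per library. The caller's version, its settings and any use of the mock library in calling are not given in the sources used here. Tools named in the submitters' processing notes are bedtools 2.17.0, SAMtools 0.1.18, TopHat2 2.0.8 and Trim Galore 0.3.3, with the build mm9. The FDR of each peak is an adjusted p-value from the authors' deposited lists, used only for description and for ranks inside a library. Starts were converted to count from 1, and summits are as deposited. Cells were a hybrid of strains other than that of the reference, and effects on mapping were not tested.

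The members, gene lists and tests were chosen with earlier results of these data known. Within each gene the text names sites with at least 3 libraries, the site with the lowest FDR, the widest peak, opposite-strand peaks and the outermost summits. Further sites shared by 2 libraries, the peak ahead of the gap in Kmt2d, the 3′ peaks of Setd1a and the stretches were picked after their values were seen. The planned lists of other COMPASS and NuRD genes and the sequence under peaks were not analysed here, as they need mm9 gene models and sequence. RefSeq tables of GRCm38 gave the strands of the 3 genes and the names of neighbours only.

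Same-strand peaks overlapping by at least 1 bp were shared, and chains of overlaps were merged into sites. For the test between proteins, peaks were counted in the 3 gene windows and in all 50-kb stranded windows that touch none of them. Those averaging 2 or more peaks entered limma-trend as log2 of (peaks + 0.5) per 10000 peaks of the list (its length + 1), two-sided, at an adjusted p of 0.05, and no read-count model was used. Precision is limited by the number of peaks and by 2 clones per protein. Alternatives covered scaling, offset (covered bases used 50 bp), filters, keeping the stronger 50% of peaks per library, covered bases, a reciprocal overlap of 50%, summits within 100 bp, peaks set to 100 bp, mean widths, a block for the replicate number, and dropping each library in turn. Python 3.11.15, NumPy 2.4.6, pandas 2.3.3, SciPy 1.17.1, statsmodels 0.14.6, matplotlib 3.10.9, R 4.3.3 and limma 3.58.1 were used.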

Additional observations from a re-analysis of the deposited data

How the results depend on the processing

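The difference in peaks between the proteins in the 3 genes kept its sign in 27 of 33 alternatives. All of these use counts chosen to be high in every library, so small differences are partly built in and say nothing about stability. The sign for Kmt2d turned to -0.11 when only the 50% of peaks with the lowest FDR per library were kept and to -0.49 with covered bases. Leaving out a library gave -0.086 to 0.26 for Kmt2d, -0.75 to 0.24 for Setd1a and -0.65 to 0.84 for Chd4. With covered bases 1 of 1096 windows passed the threshold, none of the 3 genes. In the other alternatives that kept all 4 libraries, 0 windows did. The number of windows at an unadjusted p under 0.05 in limma varied with the setting and with how many were tested. With all 4 libraries and 1096 windows it ran from 27 in the main fit to 54 with no scaling to library size. Where the number tested changed, it ran from 7 of 295, with the stronger 50% of peaks, to 306 of 16869, with no filter. With the replicate number as a block the differences were unchanged in size, 0.084, -0.25 and 0.092, with 0 windows passing. Labels give no shared batch for a number, and deviations of same-numbered libraries correlated at 0.0836 over the windows.

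The share of peaks found in another library moved to 7.69% in Kmt2d and 13.3% in Setd1a with a 50% reciprocal overlap, and to 32% in Chd4 with summits within 100 bp. Leaving out a library gave 10 to 33.3% in Kmt2d, 18.2 to 70% in Setd1a and 35 to 52.4% in Chd4. Sites with at least 2 libraries numbered 3 in Kmt2d among these stronger 50% of peaks and 3 in Chd4 with peaks set to 100 bp. With a library left out they numbered 1 to 3 in Kmt2d, 1 to 3 in Setd1a and 3 to 5 in Chd4, where fewer libraries are compared by construction. EZH2 peaks stayed wider in Kmt2d, by 63 to 95 bp with a library left out, and in Setd1a, by 3 to 48 bp. In Chd4 the difference ran from -26.25 to 28.75 bp. The causes of these shifts were not tested. Each gene had 3 to 10 peaks in a library and 2 clones per protein, and their parts in the spread were not separated.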
